A study of Mus musculus with 7 samples.

Results

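Celf2, Rbm5, Taf15, U2af2 and Lsm5 encode RNA-binding splicing regulators and spliceosome-associated factors that belong to neither the SR nor the hnRNP proteins. Their splicing events were taken from a table of percent spliced in (PSI: among reads informative for an event, the percentage from the inclusion form) by gene name, which gave 6 events in 5 genes, out of 278 events under 228 gene names. The table lists only events that the authors selected by a DRIMSeq test of mutant against control libraries, so the members were chosen with the same contrast that is described here, and their PSI values are given as a description. The RNA-seq libraries were prepared from epithelial tissue of the incisor cervical loop, a stem cell niche that renews the enamel epithelium of the ever-growing mouse incisor, at an age of 8 to 10 weeks. Every library carries K14CreER, a tamoxifen-dependent Cre recombinase under a keratin 14 promoter that acts in K14-expressing epithelial cells, together with Srsf1fl/fl, homozygous loxP-flanked alleles of the splicing factor gene Srsf1. The 3 control libraries (replicates 1, 2 and 7) were from mice without tamoxifen (TAM), and the 4 mutant libraries (replicates 3, 4, 5 and 9) from mice induced with TAM. Tamoxifen and the deletion cannot be told apart in this design. The labels do not say whether each library is a separate animal, so spreads between libraries may be technical.

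Early in splicing, the U2AF heterodimer and SF1 bind near the end of an intron and guide the U2 small nuclear ribonucleoprotein to the branch point. U2AF2, the large U2AF subunit, binds the polypyrimidine tract. LSM5 is a subunit of the ring of Sm-like proteins that holds the end of U6 small nuclear RNA, and of a related cytoplasmic ring that promotes decapping of mRNA. CELF2 binds GU-rich RNA and regulates exon choice in muscle, brain and lymphocytes. RBM5 is a component of early spliceosomes known for its effect on exons of apoptosis genes. TAF15 belongs, with EWSR1, to the FET family of RNA- and DNA-binding proteins. Genes for splicing factors are themselves often spliced in alternative forms, some of which shift the reading frame. SRSF1 is an SR protein that binds purine-rich exon sequences and usually favours inclusion.

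The exons themselves are shown first, because their length and sequence determine what the skipped forms would encode. Each is written 5′ to 3′ on the sense strand, as it stands in GENCODE M21 transcripts on GRCm38, and capitals mark GGAGA and GAAGA, purine-rich pentamers of the kind that SRSF1 binds.
Celf2 exon, 144 bases, chr2:6549832-6549975, minus strand: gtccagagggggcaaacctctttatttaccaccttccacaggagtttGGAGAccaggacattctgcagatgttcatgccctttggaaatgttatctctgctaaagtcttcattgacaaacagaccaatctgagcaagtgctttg
Rbm5 exon, 61 bases, chr9:107755853-107755913, minus strand: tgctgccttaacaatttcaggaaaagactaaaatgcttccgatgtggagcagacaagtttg
Taf15 exon, 35 bases, chr11:83497262-83497296, plus strand: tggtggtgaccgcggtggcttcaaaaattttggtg
U2af2 exon, 45 bases, chr7:5067210-5067254, plus strand: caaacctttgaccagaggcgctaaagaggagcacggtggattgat
Lsm5 92-base exon, chr6:56703318-56703409, minus strand: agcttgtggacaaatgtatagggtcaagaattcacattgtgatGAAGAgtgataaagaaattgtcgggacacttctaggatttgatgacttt
Lsm5 28-base exon, chr6:56703006-56703033, minus strand: atatggtgttgGAAGAtgtcacagaatt

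On the sense strand, 3 of the 6 exons held 1 of these pentamers and 3 held neither. GGAGA occurred once in the Celf2 exon, against 30.2% of 1239 internal M21 exons of the same length. GAAGA occurred once in the 92-base Lsm5 exon, where 30.7% of 1079 exons of that length hold it, and once in the 28-base Lsm5 exon, where 13.2% of 114 do. These matches lie apart from each other, so none overlaps another. One or the other pentamer is found in 43.3% of exons as long as that of Rbm5, 31.8% of those as long as that of U2af2 and 13.2% of those as long as that of Taf15. On the opposite strand the single match was for GAAGA in the Celf2 exon. Among the 173 distinct cassette exons of the table, 24.9% held GGAGA and 34.7% held GAAGA on the sense strand, and 14.5% and 13.9% on the other. Purines made up 47.9% (Celf2) to 62.2% (U2af2) of the member exons, and a median of 55.0% of the listed cassette exons.

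The targeted gene and the tissue could be checked only in part. The 1 event listed for Srsf1, which joins its first exon to a site beyond the gene, had PSI values of 5.83 to 10.07% in the controls and 44.74 to 85.52% in the mutants, so every mutant library lay above every control. This event was selected on the same contrast, and the groups were separate in 95.7% of all listed events, so the separation is no independent check. None of 18 dental epithelial, 12 dental mesenchymal and 12 blood and endothelial marker genes has a listed event, and the table holds no expression values, so neither the cell types nor the level of Srsf1 RNA could be compared. The number of reads behind an event is unknown, and PSI values therefore carry no counting interval here.

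Celf2 had the largest difference among the 6 events. Its exon, number 14 of 16 in the reference transcript ENSMUST00000002176.12 (gene ENSMUSG00000002107.18), is coding in 9 M21 transcripts, and 4 further protein-coding transcripts skip it, so both forms are annotated. PSI was 82.61, 79.35 and 89.13% in control libraries 1, 2 and 7. Mutant libraries 3, 4, 5 and 9 had 61.39, 69.81, 58.06 and 74.60%. All 4 mutants lay below all 3 controls, with 4.75 percentage points between the nearest libraries, and the mutants were spread over 16.5 points, the widest range of the 6 events. The means were 83.7% ± 4.98 (SD, n = 3) and 66.0% ± 7.59 (SD, n = 4), a difference of −17.7 points (limma SE 4.33). The skipped form thus went from 16.3% to 34.0% of the event. Its length is a multiple of 3: taking the exon out of the reference transcript leaves an open reading frame of 436 codons in place of 484, with the same stop codon.

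Rbm5 exon 8 of 25 (transcript ENSMUST00000035199.12, gene ENSMUSG00000032580.12) was included almost completely in the controls. Control libraries 1 and 7 were listed at 100% and control 2 at 97.97%. Mutant libraries 3, 4, 5 and 9 had 93.83, 90.67, 93.18 and 92.21%. The groups did not overlap, and the gap between them was 4.14 points. This exon had the narrowest range both among controls (2.03 points) and among mutants (3.16 points). The control range is bounded by the top of the scale, where controls 1 and 7 lie. Means were 99.3% ± 1.17 (SD, n = 3) and 92.5% ± 1.37 (SD, n = 4), a difference of −6.85 points (limma SE 1.76). Skipping of this exon is annotated in 4 M21 transcripts, none of them of the protein-coding class: 2 are annotated for nonsense-mediated decay, the pathway that degrades mRNA with a premature stop codon, and 2 as retained introns. Since 61 is not a multiple of 3, removal of the exon from that transcript shifts the frame, and the first stop codon then comes after 217 codons instead of 814, with 1604 bases between it and the last exon junction.

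Taf15 was the 1 gene whose exon was higher in the mutants. Its PSI in control libraries 1, 2 and 7 was 81.25, 82.52 and 85.45%. Mutant libraries 3, 4, 5 and 9 had 95.05, 95.40, 87.06 and 89.69%. The mutants split into a pair near 95% and a pair within 5 points of the highest control, and the nearest libraries of the 2 groups were 1.61 points apart. Means were 83.1% ± 2.15 (SD, n = 3) and 91.8% ± 4.10 (SD, n = 4), a difference of 8.73 points (limma SE 2.62), so the skipped form went from 16.9% to 8.20% of the event. Exon 8 of 16 in ENSMUST00000021018.10 (gene ENSMUSG00000020680.15) is coding, and M21 holds neither of the exclusion junctions, which start at the end of exon 7 or at a second site within it. Without these 35 bases the frame of this transcript shifts, and a stop codon follows after 210 codons rather than 557, with 966 bases up to the last exon junction. With the second site in exon 7 as well, the open reading frame is 177 codons.

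U2af2 had the smallest difference. The table classes the event as an alternative first exon, but by annotation the listed exon is exon 3 of 12 in ENSMUST00000005041.14 (gene ENSMUSG00000030435.16), and the exon listed for the exclusion form is exon 2. Both are coding in that transcript, and the exclusion junction, which M21 lacks, runs from exon 2 to exon 4 past exon 3. The inclusion form is measured by the junction from exon 3 to exon 4 alone. In M21, 2 further transcripts start inside exon 3, so this junction can also come from RNAs that begin there. PSI was 96.92, 98.92 and 93.95% in control libraries 1, 2 and 7. It was 92.63, 86.81, 89.57 and 91.67% in mutant libraries 3, 4, 5 and 9. The groups were separate by 1.32 points, less than the range of either group (4.97 and 5.82 points). Means were 96.6% ± 2.50 (SD, n = 3) and 90.2% ± 2.58 (SD, n = 4), a difference of −6.43 points (limma SE 2.20). This is the 1 event whose limma call depended on single libraries. Its limma adjusted p was 0.0639 with control 1 left out and 0.0875 with control 2 left out, at differences of −6.27 and −5.27 points. The call for Taf15 was kept only narrowly, with a limma adjusted p of 0.049 without control 1 and 0.0424 without control 2. Every limma adjusted p here is taken over events already selected on this contrast, so it is a description and no independent test. Taking the 45 bases out of the U2af2 reference transcript keeps the frame and leaves 456 of 471 codons.

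Lsm5 (ENSMUSG00000091625.8) has 5 exons in its main coding transcript (ENSMUST00000170382.4), and its exons 2 and 3 are both listed. The 92-base exon had PSI values of 91.38, 92.73 and 97.59% in control libraries 1, 2 and 7. In mutant libraries 3, 4, 5 and 9 it had 82.76, 80, 79.80 and 85.00%. For the 28-base exon the controls had 90.00, 92.31 and 97.14%, and the mutants had 79.59, 76.56, 80.56 and 78.18%. Both exons were lower in every mutant library than in any control, with gaps of 6.38 and 9.44 points, the widest of the 6 events. Means for the 92-base exon were 93.9% ± 3.27 (SD, n = 3) and 81.9% ± 2.47 (SD, n = 4), a difference of −12.0 points (limma SE 2.32). Means for the 28-base exon were 93.2% ± 3.64 (SD, n = 3) and 78.7% ± 1.74 (SD, n = 4), a difference of −14.4 points (limma SE 2.26). These are not separate measurements, because 4 of the 6 junctions used are shared by both events. The junction from exon 1 to exon 4, which skips both exons and is not in M21, counts as exclusion in each. The junction from exon 2 to exon 3 counts as inclusion in each, and the junctions that skip 1 of the exons count as inclusion in one event and as exclusion in the other.

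The 92-base form of Lsm5 exon 2 is not the form of that transcript. The main transcript uses a 5′ splice site 4 bases further on, and the 92-base form occurs in 1 transcript, which is annotated for nonsense-mediated decay. The junction from the 96-base form to exon 3 is in neither event. Reads of that form can still enter both as inclusion, through the junction from exon 1 to exon 2 in the 92-base event and that from exon 3 to exon 4 in the 28-base event. The PSI values therefore do not separate the 2 forms. The last 20 bases of the shorter exon, the 4 added bases in capitals and the first 6 intron bases, read from a retained-intron transcript, show a GT after each site.
Lsm5 exon 2 end, minus strand: ttctaggatttgatgactttGTCAgtatcc
The main transcript has 91 codons. With the shorter exon 2 joined to exon 3, the frame shifts and the first stop follows after 67 codons. Without exon 3 the shorter form gives 46 codons, and with both exons skipped 27 codons remain. From the stop codon to the last exon junction there are 35 bases in the 67-codon form, 70 in the 46-codon form and 35 in the 27-codon form. These distances are far shorter than those for Rbm5 and Taf15. Skipping of exon 2 alone, as in a second protein-coding transcript, keeps the frame and leaves 59 codons.

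**Figure D1:**
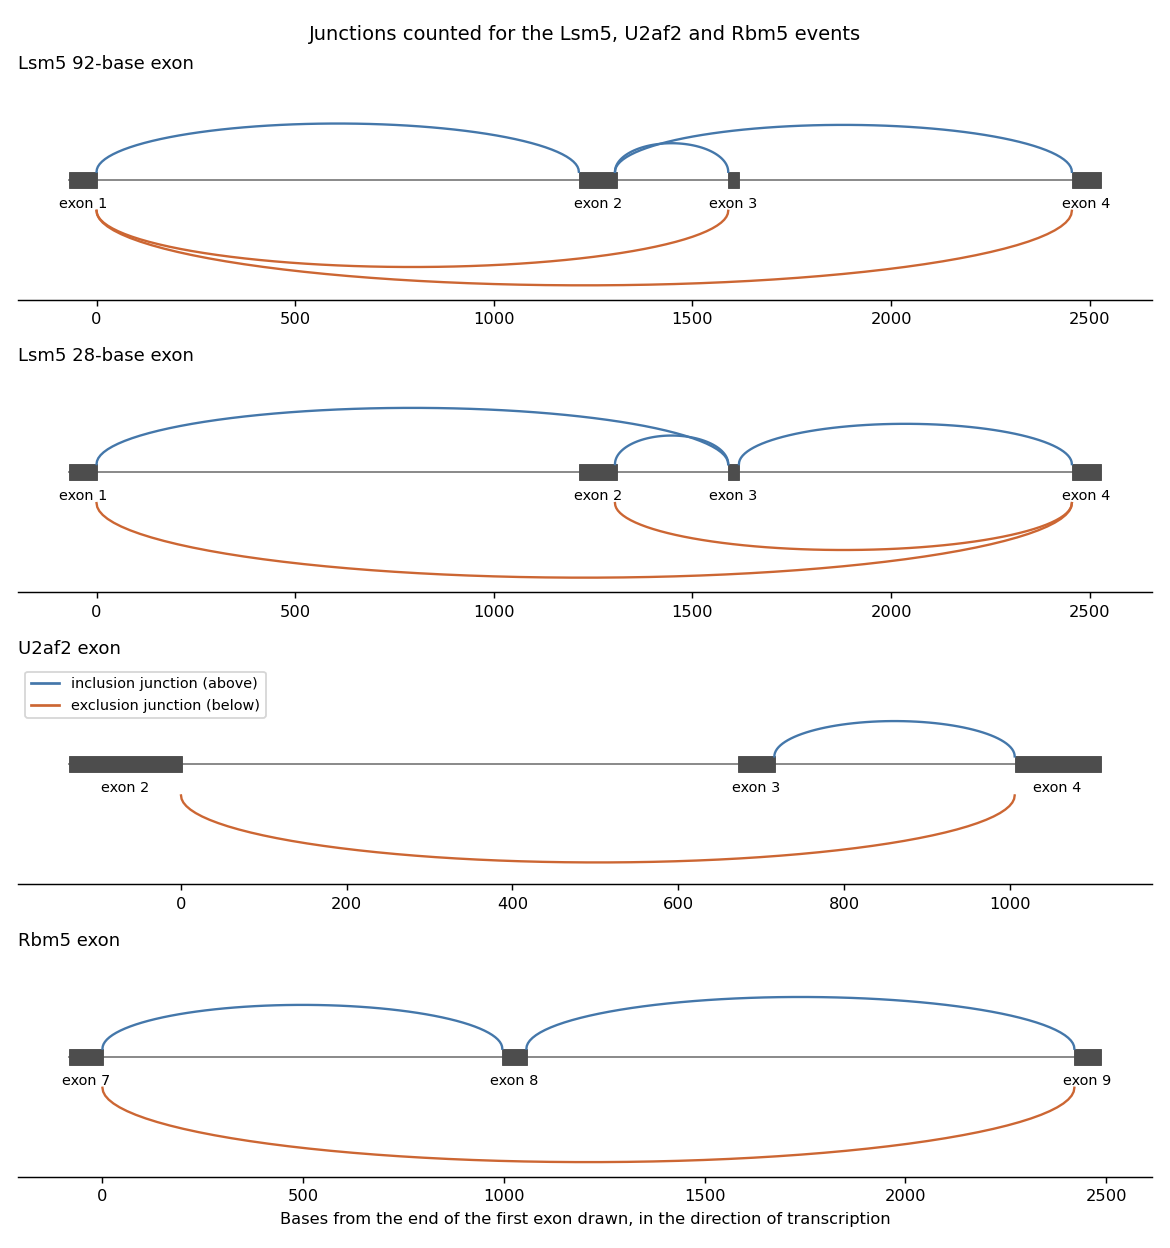
Junctions that the table counts for the 2 Lsm5 events and those of U2af2 and Rbm5, drawn to scale on exons of the reference transcripts (Lsm5 with its 96-base exon 2); the horizontal axis gives bases from the end of the first exon drawn, arcs above are inclusion junctions and arcs below exclusion junctions. The Lsm5 events share 4 of their 6 junctions, and the U2af2 exclusion junction passes over exon 3.

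**Figure D2:**
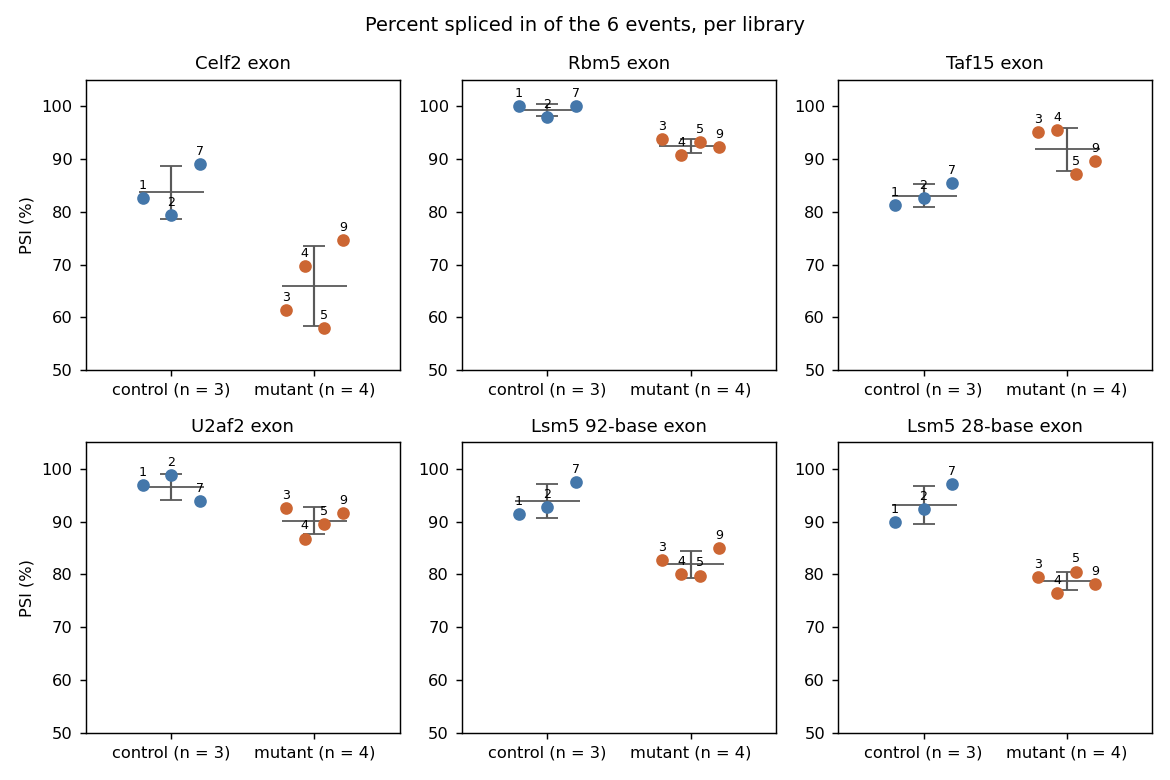
PSI in percent (vertical axis, from 50) of the 6 events in each control and mutant library; points are libraries labelled by replicate number, horizontal lines are means and bars are SD (n = 3 and n = 4). The mutants lie below the controls in 5 events and above them for Taf15.

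Counts over the 6 events were close to those over the whole table. All 6 passed limma at an adjusted p of 0.05, 5 lower and 1 higher in the mutants, where 95.7% of all 278 events passed, 78.8% lower and 16.9% higher. The groups were separate in all 6, as they were in 95.7% of all events. Because the table was selected on this contrast, nothing is read from these counts. The median absolute difference of medians was 10.6 points for the 6 events, from 6.3 (U2af2) to 17.01 (Celf2), against 13.6 points over the table. By the authors' deposited table, the corrected DRIMSeq p was 0.000785 for Rbm5, 0.0144 and 0.0235 for the 28-base and 92-base exons of Lsm5, and 0.0421 for Celf2. For Taf15 and U2af2 the authors' deposited table gives 0.0842 and 0.0843, near the limit of 0.1 that every listed event meets, and the highest value in the table is 0.0979. The JuncBASE corrected p in the authors' deposited table was between 0.182 (Rbm5) and 0.531 (U2af2) for the 6 events.

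All 6 events had a control median PSI of at least 80%, as did 150 of the 278 listed events. Among those 150, the median was lower in the mutants for 145 and higher for 5, and among the 104 cassette exons with such control values it was lower for 100 and higher for 4. Taf15 is therefore 1 of few highly included exons in the table with a higher value in the mutants. PSI ends at 100%, so events with such control values have less room to rise than to fall. Exon length was not used in the choice of members. As listed, it was a multiple of 3 for 2 exons (Celf2 and U2af2) and not for 4. The 4 include the 92-base form of Lsm5 exon 2, while the 96-base form of the main transcript is a multiple of 3. Of the 5 events classed as cassettes, 1 had a listed length that is a multiple of 3, against 102 of the 173 listed cassette exons (59.0%). With so few exons this is a count and no more. At least 1 junction outside the authors' annotation was used in 4 of the 6 events, those of Taf15, U2af2 and Lsm5, against 128 of 278 in the table.

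**Figure D3:**
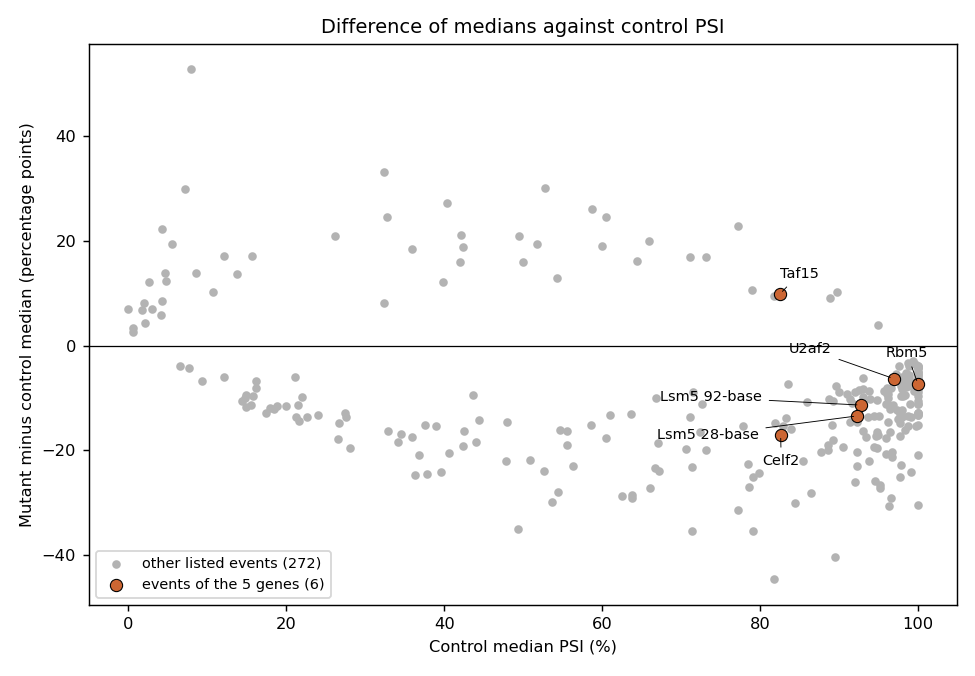
Mutant minus control median in percentage points (vertical axis) against the control median PSI in percent (horizontal axis) for the 278 listed events; grey points are other events and orange points the 6 events of the 5 genes. The 6 events sit at control medians above 80%, and Taf15 alone among them is above 0.

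Libraries did not take the same order in every event. Control 7 was the highest control for Celf2, Taf15 and both Lsm5 exons, tied with control 1 for Rbm5, and was the lowest for U2af2. Among the mutants, library 5 was the lowest for Celf2, Taf15 and the 92-base Lsm5 exon, and library 4 for Rbm5, U2af2 and the 28-base Lsm5 exon. Library 5 had the highest PSI of the Srsf1 event (85.52%) and library 4 the lowest (44.74%). From high to low the mutants ranked 5, 3, 9 and 4 in that event, which was also their order for the 28-base Lsm5 exon and for none of the other 5 events. That exon was lower in the mutants, so library 5, with the highest Srsf1 value, was the mutant nearest to the controls. Its mutant values spanned only 4.0 points, and nothing is read from this match. The SD between mutants had a median of 2.53 points over the 6 events, compared with 4.11 over the table, and that between controls 2.88 against 2.21.

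Events with the most similar PSI profile over the 7 libraries were found by Pearson's r, as a description. Control and mutant libraries were separate in 266 of the 278 events, and that shared difference enters every r. An alternative first exon of Etv1 (r = 0.996) and adjacent cassette exons of Map4k4 (r = 0.990) were most like the 28-base Lsm5 exon. For the 92-base exon these were a Bod1l cassette exon (r = −0.993, in the opposite direction) and a last exon of Pbdc1 (r = 0.990). Rbm5 was most like cassette exons of Ptprk (r = −0.992) and Kat7 (r = 0.987). Taf15 had as its nearest a retained intron of Tmpo (r = −0.987) and a last exon of Wsb1 (r = −0.980), both lower in the mutants. Celf2 was closest to a first exon of Ergic3 (r = 0.982) and a cassette exon of Zc3h4 (r = 0.966), and U2af2 to cassette exons of Umps (r = 0.980) and Ktn1 (r = −0.971).

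Other genes of the same families and complexes were counted in lists with 196 genes in all, SR and hnRNP proteins left out. Of these, 10 had a listed event, with 11 events lower and 2 higher by limma, and all 13 passed, in a table where 95.7% did. Beyond the 5 genes the listed ones were Lsm6, Rbm3, Dnajc8, Fubp1 and Ybx3, with 6 events lower and 1 higher. The median difference of medians was −13.2 points for these 7 events and −11.3 points over the table. Both last exon events of Rbm3 list the same exon, and the Lsm5 events share junctions. Neither the counts nor the median thus rest on separate measurements only. Of 9 CELF and MBNL genes only Celf2 was listed. A gene without a listed event cannot be called unchanged.

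Lsm6, which encodes a neighbour of LSM5 in the Sm-like ring, was the other listed gene among 22 Sm and LSm genes, and its 99-base cassette exon differed in the opposite direction to the Lsm5 exons. Its PSI was 42.42, 46.26 and 32.74% in control libraries 1, 2 and 7. Mutant libraries 3, 4, 5 and 9 had 56.59, 65.97, 67.31 and 52.30%, all above the controls. Means were 40.5% ± 6.97 (SD, n = 3) and 60.5% ± 7.28 (SD, n = 4), a difference of 20.1 points (limma SE 4.60). Rbm3, a cold-inducible RNA-binding protein gene, was the other listed gene among 27 of the RBM family, with 3 events that were all lower in the mutants. Retention of an Rbm3 intron was 96.0% ± 3.62 in the controls and 75.5% ± 5.14 in the mutants. Its alternative last exon, listed against different alternatives, was at 97.0% ± 1.47 and 82.8% ± 7.71 in one event and at 96.3% ± 1.65 and 76.7% ± 9.41 in the other. In the first of these, mutant 3 had 93.59%, close to the lowest control at 95.35%. Among 23 genes of branch point and 3′ splice site recognition, Dnajc8, a J-domain protein gene, was listed beside U2af2, with a 95-base cassette exon at 96.1% ± 1.01 and 88.1% ± 3.57.

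**Figure D4:**
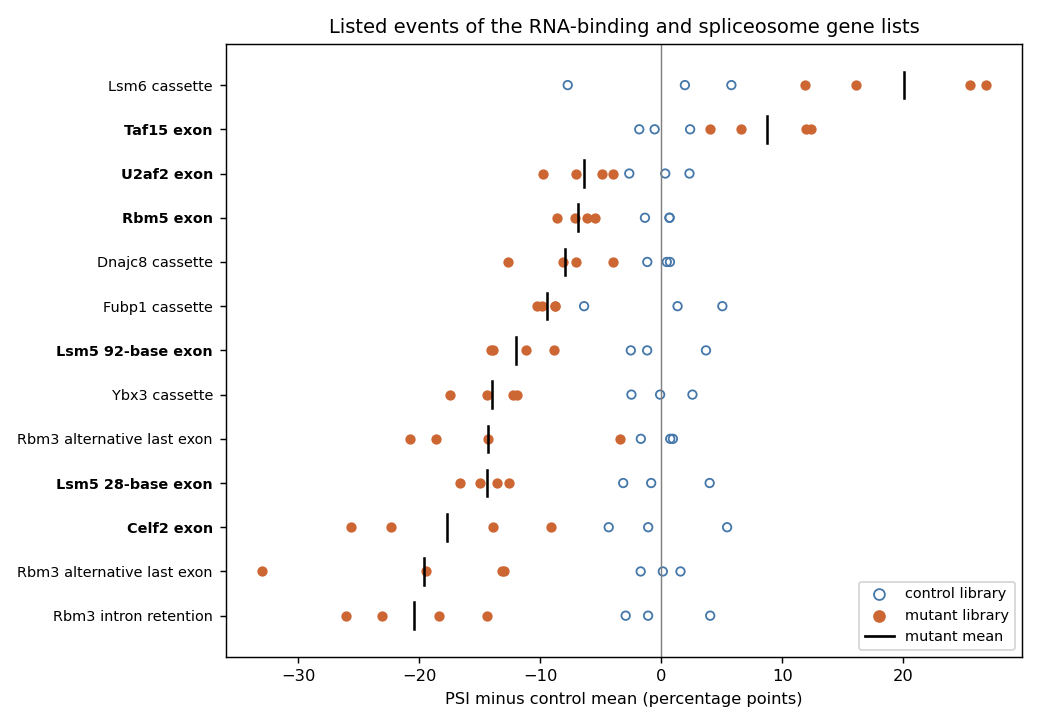
PSI minus the control mean in percentage points (horizontal axis) for the 13 listed events of the RNA-binding and spliceosome gene lists; open circles are control libraries, filled circles mutant libraries, black ticks mutant means, and names in bold are the 6 events of the 5 genes. Events of Lsm6 and Taf15 are higher in the mutants and the other 11 lower.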

How the data were processed

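Per the labels' protocols, total RNA was prepared for sequencing by the Illumina TruSeq RNA method. The submitters' processing notes list DESeq, TopHat, Bowtie and SAMtools, without versions, and the series text names JuncBASE for the splicing events. The authors deposited PSI as a percent per library, with group medians in percent and their difference in percentage points, per the file headers. The authors' deposited p-values are from JuncBASE (test not given in the sources used here) and DRIMSeq. Read counts were not used here. All 7 library columns matched a sample title, and 0 were left unused.

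The notes name mm9, but 377 of 405 junctions (93.1%) of events classed as known coincide with GENCODE M21 introns on GRCm38, and 0 after a shift of 1000 bases, so coordinates were read as GRCm38. Sequences were read from M21 transcripts.

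PSI was fitted over all 278 events with limma 3.58.1 (R 4.3.3), with Benjamini-Hochberg adjustment over all of them at 0.05, and the fit was tested on simulated data. Pairs of libraries within a group differed by a median of 1.94 to 5.89 points. Each library was kept as a sample, although this spread cannot tell separate animals from technical libraries. All events of the 5 genes are described. Genes of the fixed lists are named, with values where they share a list with 1 of the 5 genes, and the 2 most alike events are given for each member. Members and lists were chosen with earlier results of these data known. Some genes of these families are not reported here and were left out of the lists. Splice site sequences were not analysed here beyond what transcripts hold. Python 3.11.15 with pandas 2.3.3 and scipy 1.17.1 was used.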

Additional observations from a re-analysis of the deposited data

How the results depend on the processing

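The settings run were PSI on the logit scale, moderation with a trend, library weights, medians and each library left out. A further setting kept only events with a DRIMSeq corrected p below 0.05 (4 of the 6 enter). The 6 differences kept their sign throughout. Because the groups were separate in all 6 events, none of these settings could reverse a sign, and this says nothing on stability. Of the 70 values that these settings gave, 68 stayed past the limma threshold or, for the medians, which carry no p, within the spread of the libraries. Taf15 and U2af2 did not enter the DRIMSeq setting and have no value there. The permutation test and the threshold of 0.01, given below, are not among the 70. U2af2 did not pass without control 1 or control 2, and Taf15 passed only narrowly when each of these was left out in turn. The ranges with 1 library left out were −20.6 to −15.0 points for Celf2, −7.53 to −6.25 for Rbm5, 7.53 to 10.3 for Taf15, −7.75 to −5.27 for U2af2, −13.3 to −10.2 for the 92-base Lsm5 exon and −16.0 to −12.4 for the 28-base exon. An exact two-sided permutation test of 3 against 4 libraries cannot go below p = 0.0571, which all 6 events reached (−17.7, −6.85, 8.73, −6.43, −12.0 and −14.4 points), so it cannot pass 0.05 and says nothing on stability. At an adjusted p of 0.01, 4 of the 6 and 215 of the 278 events passed limma. No paired analysis was possible because the sample labels name no pairs and the groups share no replicate number. Whether libraries were matched in some other way is not known here. Depth per event is unknown, so the precision of single PSI values, above all those of 100%, cannot be given.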
